A study of Drosophila melanogaster with 3 samples.

Results

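The genes described here are the protein-coding genes of chromosome 4 of Drosophila melanogaster, the short "dot" chromosome. The Ensembl BDGP6.54 annotation places 80 protein-coding genes on it, and 4 of them (RpS3A, pho, eIF4G1 and ATPsynbeta) were left out by the rule, so that 76 of the 13945 protein-coding genes of the genome remained. The protein studied is the product of CG33213, which the annotation names Boh1, and its binding was mapped by ChIP-seq. The flies were of a stable transgenic line with CG33213 fused to GFP at its C terminus, and chromatin of whole embryos of 0 to 24 h, both sexes pooled, was precipitated, by the description in the labels, with an antibody against GFP, while their antibody field names CG33213. All 3 biological replicates belong to this one group, no genotype or treatment was compared, and an embryo is a mixture of all its cell types, so a peak cannot be given to any of them. The transgene's promoter and expression level are not stated in the labels.

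Chromosome 4 is unusual among the fly's chromosomes. It is richer in repeats than the large arms and much of it carries the heterochromatin protein HP1a, yet it holds active genes, many of them long and with roles in development and the nervous system. The chromosome-specific protein Pof coats these genes, and the methyltransferase encoded by egg marks the chromosome's nucleosomes. Boh1 stands for Buddy of Hmr 1, after the hybrid incompatibility protein Hmr, which associates with HP1a and with chromatin boundaries.

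Peaks were taken from the authors' optimal list, which holds 4417 peaks that passed an irreproducible discovery rate threshold over the replicates, and from their relaxed lists of 30000 peaks and background each. A gene was called bound when the summit of an optimal peak lay no more than 500 bp from at least 1 of its transcription start sites (TSSs). Peaks are given by their rank by signal within a list, where rank 1 is the strongest. All coordinates are on dm6. The lists carry no read counts, so the sequencing depth of the replicates is unknown.

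Of the 76 genes, 23 were bound (30.3%), with 23 optimal peaks near their TSSs. The background was 25.0% of all protein-coding genes, and 24.9% of the 13865 genes of the large arms (X, 2L, 2R, 3L and 3R). The eye selector gene ey had the strongest promoter peak among them. It was followed by the divergent pair Zyx and apolpp, the RNA regulators Gyf and gw and the activin ligand gene Actbeta. The other 17 were CG32017, Crk, PlexA, PlexB, Sox102F, Rad23, mGluR, CG11076, CaMKII, Arl4, anne, CG31998, MED26, CG31999, ci, lgs and CaMKI.

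The summits sat close to the TSSs. For 18 of the 23 genes the summit was at most 100 bp from a TSS and for 5 it was 101 to 500 bp away, with 21 of the 23 upstream and a median position of -75 bp. The last genes inside the limit were Sox102F at 244 bp and mGluR at 318 bp. The first outside it were pan, 553 bp from a peak of rank 682, and Asator, 558 bp from a peak of rank 3244.

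Sequences of the bound promoters are shown here for the words that chromosome 4 peaks share with housekeeping promoters. In a window of 50 bp on each side of the summit, the DNA replication-related element TATCGATA, the palindrome recognised by the factor Dref, was found at 4 of the 42 optimal peaks of chromosome 4 (9.52%) and at 4.80% of the 4375 on the large arms. All 4 were at promoters, where the share was 16.0% against 6.96%. The 4 sites belong to the signalling genes Actbeta, Crk and PlexA and to MED26, which encodes a subunit of Mediator. GGTCACAC, the core of the motif of the factor M1BP, occurred at 1 peak (2.38% against 4.39%), that of Rad23. Both strands were searched, and the sequences are given on the strand of the gene with these words in capitals. At Actbeta, copies of a further word, GTTGCCA or its reverse complement, are also in capitals. For Crk and Rad23, where the word lies in the 5′ UTR, only the site is given.

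Actbeta promoter, chr4:1084826-1084926, minus strand, rank 1108: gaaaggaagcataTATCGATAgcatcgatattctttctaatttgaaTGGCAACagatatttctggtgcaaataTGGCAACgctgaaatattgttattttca

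Crk site, chr4:210239-210268, plus strand, rank 1918: cgatcaaacatTATCGATAgtgtttctatg

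PlexA promoter, chr4:1027137-1027237, minus strand, rank 2127: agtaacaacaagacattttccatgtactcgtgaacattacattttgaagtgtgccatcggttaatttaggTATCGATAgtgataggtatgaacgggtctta

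MED26 promoter, chr4:787615-787704, minus strand, rank 3987: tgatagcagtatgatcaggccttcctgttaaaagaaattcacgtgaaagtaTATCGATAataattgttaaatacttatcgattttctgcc

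Rad23 site, chr4:308097-308126, plus strand, rank 2238: agtccatgtgcGGTCACACtgatgacaaat

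A word that stands out in these windows is GTTGCCA, which was chosen after the windows had been read and so carries no test. It occurred at 5 of the 42 chromosome 4 peaks (11.9%) and at 5.07% of those on the large arms. At promoter peaks the shares were close, 2 of 25 on chromosome 4 and 181 of 2832 (6.39%) on the large arms. At distal peaks, more than 500 bp from a TSS, they were 3 of 17 (17.6%) and 2.66%. In the 250 bp upstream of the 5′-most TSS the order was the other way. There 2 of 23 bound chromosome 4 genes (8.70%) had the word, against 11.1% of bound genes of the large arms. At 4 chromosome 4 peaks (9.52%) it occurred at least 2 times, against 20 of 4375 (0.457%) elsewhere. These 4 are the promoter peaks of ey and Actbeta and the peaks upstream of pan, which encodes the TCF factor of Wnt signalling, and of fuss, a Ski family gene. The fifth, with 1 copy, lies 1564 bp upstream of Sox102F, a SoxD gene. Copies on either strand are in capitals.

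ey promoter, chr4:697579-697679, plus strand, rank 437: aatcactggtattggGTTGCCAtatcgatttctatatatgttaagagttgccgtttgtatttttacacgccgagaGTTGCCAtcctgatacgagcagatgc

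pan upstream peak, chr4:68723-68823, plus strand, rank 682: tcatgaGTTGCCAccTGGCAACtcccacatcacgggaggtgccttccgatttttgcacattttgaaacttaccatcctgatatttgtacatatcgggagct

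fuss upstream peak, chr4:979978-980078, minus strand, rank 204: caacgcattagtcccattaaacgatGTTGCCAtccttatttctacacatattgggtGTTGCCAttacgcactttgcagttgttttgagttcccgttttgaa

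The remaining words searched were CAGCTG (2.38% of chromosome 4 peaks against 6.40% on the large arms), GAGAG (7.14% against 11.1%), TATAAA (16.7% against 13.5%) and ACACAC (7.14% against 6.81%). With 42 peaks on chromosome 4, 1 peak is worth more than 2 points of such a share. A word in a window is a description of the letters and does not show that its factor was there.

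Most bound promoters had a matching peak in every replicate. A replicate summit lay within 150 bp of the optimal summit in all 3 lists for 22 of the 23 genes. The exception was MED26, which had none in replicate 2. The matched summits had a median rank of 3040 in replicate 1, 1969 in replicate 2 and 2616 in replicate 3. They were among the 4417 strongest peaks for 17, 19 and 21 of the genes. Since the optimal list was derived from the same replicates, these ranks show the spread between replicates and are not an independent check.

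**Figure D1:**
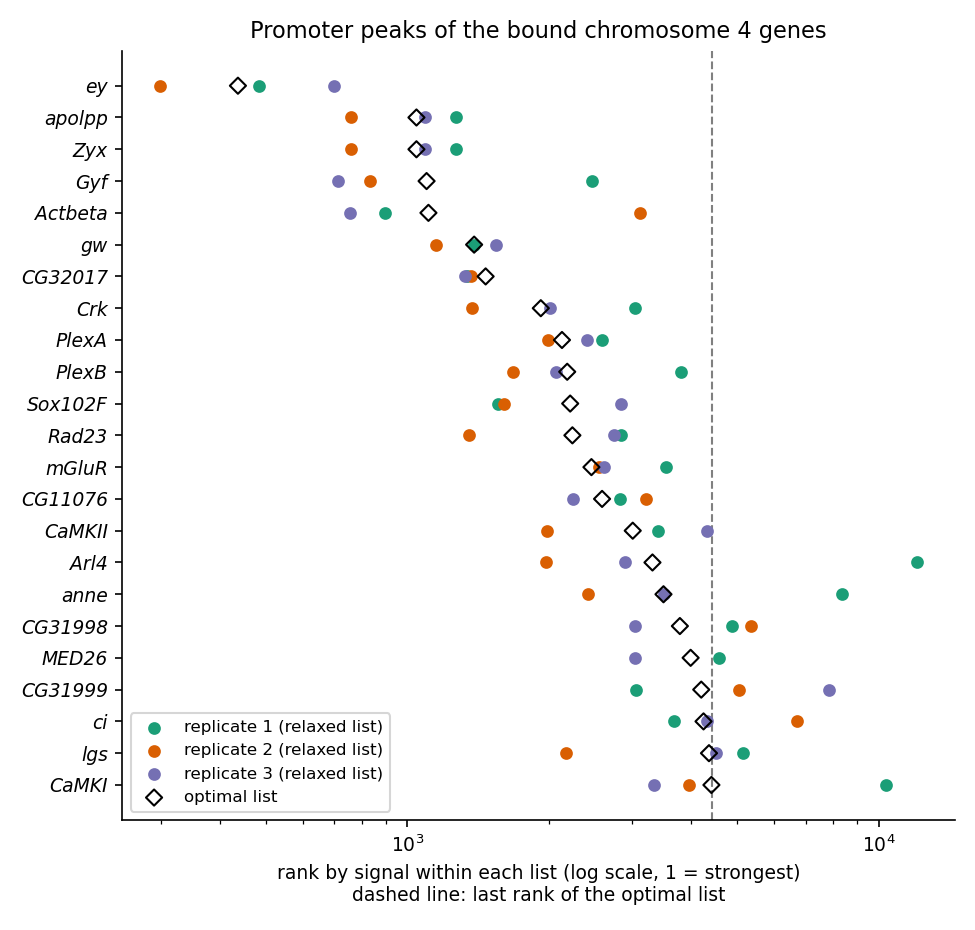
Rank by signal (log scale, 1 is the strongest) of the promoter peak of each of the 23 bound chromosome 4 genes, in the optimal list (diamonds) and in the relaxed list of each replicate (points); the dashed line is rank 4417, the last of the optimal list. The ey peak leads in every list, and Arl4 and CaMKI fall beyond rank 10000 in replicate 1.

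The role groups are small, and some genes were placed in their group after values had been seen. The background for each group is the 25.0% of all protein-coding genes that were bound. Genes of RNA silencing and translational control were bound in 2 of 3 cases (66.7%). Gyf, which encodes a GYF domain protein of translational repression, had its summit at 867106, 81 bp upstream of the TSS, at rank 1098. Its ranks of 2464, 834 and 714 in replicates 1, 2 and 3 set replicate 1 apart from the others. The peak of gw (FBgn0051992, minus strand, 649041 to 660608), the GW182 protein of microRNA silencing, lay 75 bp upstream of a TSS at 659983, and its optimal rank of 1385 and replicate ranks of 1386, 1151 and 1542 were close together. The gene 4E-T, for a binding partner of the cap-binding protein eIF4E, was unbound, 21636 bp from the nearest optimal summit.

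Among developmental transcription factor genes 3 of 12 were bound (25.0%). The Pax6 gene ey (FBgn0005558, plus strand, 697689 to 721173) had its summit at 697629, 60 bp upstream of the TSS at 697689. Its optimal rank was 437 and its replicate ranks were 484, 299 and 700, so its peak was the strongest of the bound promoters in all of them. Sox102F was bound at an internal TSS, 244 bp from a summit in its own intron (rank 2214; replicates 1559, 1604 and 2839). The gene for the Hedgehog effector ci had one of the weakest peaks, 41 bp upstream of its internal TSS (rank 4246; 3672, 6710 and 4311), and replicate 2 left it outside the strongest peaks. The unbound factors were pan, fuss, sv, zfh2, toy, fd102C, dati, NfI and onecut. Of these, pan, fuss and zfh2 had strong optimal peaks farther upstream, described with the distal peaks.

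Ligands, receptors and adaptors of signalling were bound in 4 of 8 cases. The peak of Actbeta (FBgn0024913, minus strand, 1077331 to 1084796), which encodes an activin ligand of the TGF-beta family, lay 80 bp upstream of its only TSS at rank 1108. Its ranks of 895, 3107 and 756 differed between replicates, with replicate 2 the low one. The adaptor gene Crk had its summit 6 bp from the TSS (rank 1918; replicates 3040, 1373 and 2007). Both plexin genes, which encode semaphorin receptors of axon guidance, were bound at neighbouring ranks. PlexA had its summit 86 bp upstream (rank 2127; 2592, 1991 and 2404), and PlexB 44 bp upstream (rank 2182; 3799, 1677 and 2061). The ligand genes myo and mav and the guidance pair Eph and Ephrin were unbound, though an optimal peak of rank 1328 lay 803 bp upstream of myo.

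Zyx, for the focal adhesion protein zyxin, was the only one of 5 muscle and cytoskeleton genes that was bound (20.0%, background 25.0%). It shared its peak with apolpp, which encodes the precursor of the lipid-carrying apolipophorins and is transcribed in the opposite direction. The summit at 1060939 lay 21 bp upstream of a Zyx TSS and 30 bp upstream of an apolpp TSS, and had the optimal rank 1045 and the replicate ranks 1268, 759 and 1087. The giant muscle protein gene bt, Ank, Kif3C and RhoGAP102A were unbound. In the group of metabolism, transport and protein turnover, apolpp and the ubiquitin receptor gene Rad23 (19 bp downstream of the TSS, rank 2238; replicates 2842, 1350 and 2747) were bound. Of that group of 9, 22.2% were thus bound, and the other 7 were not, among them yellow-h, Mpv17, Zip102B, Rnf11, Tdg and the complex I gene ND-49.

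Synaptic and excitability genes were bound in 2 of 11 cases (18.2%, near the background of 25.0%). CaMKII, a calcium-dependent kinase of synaptic plasticity, was the one member with peaks at separate promoters, 103 bp from an internal TSS (rank 3005; replicates 3396, 1974 and 4325) and 150 bp upstream of its outer TSS (rank 2435; 3175, 1372 and 2108). The glutamate receptor gene mGluR had its summit 318 bp upstream of the TSS (rank 2456; 3529, 2551 and 2616). The unbound members were Syt7, Slip1, Cals, Ekar, unc-13, dpr7, Gat, Cadps and PMCA, with roles in vesicle fusion, transmitter receptors and transport. Their group had a median distance of 13502 bp to the nearest optimal summit, against 3923 bp over all 76 genes. Over the genes of the large arms the median was 5799 bp. The distance is not particular to this group, since the 6 cofactors of transcription had a larger median, 18378.5 bp.

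Kinase and membrane traffic genes were bound in 2 of 6 cases and cofactors of transcription in 2 of 6 (33.3% in each, background 25.0%). The peaks of the small GTPase gene Arl4 (rank 3309, replicates 12039, 1964 and 2900) and CaMKI (rank 4413, replicates 10327, 3961 and 3329) were far weaker in replicate 1. The Mediator gene MED26 (rank 3987) ranked 4585 in replicate 1 and 3044 in replicate 3, with no match within 150 bp in replicate 2. MED26 was nevertheless bound in the strongest peaks of replicate 2, and not in those of replicate 1. With matching within 300 bp, all 23 bound genes had a summit in every replicate. The peak of lgs, the BCL9 homologue that joins beta-catenin to its coactivator, ranked 4361 and 5157, 2170 and 4502. Asator, Arf4, PIP4K and Dyrk3, and Mitf, Taf3, Hcf and Pur-alpha, were unbound. The fertility gene JYalpha was unbound as well.

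Of the 15 other or uncharacterised genes, 5 were bound (33.3%, background 25.0%). CG32017 had the strongest and steadiest of these peaks, 93 bp upstream of an internal TSS (rank 1465; replicates 1335, 1367 and 1324). CG11076 shared its peak (rank 2587) with the divergently transcribed ATPsynbeta, from whose TSS the summit lay 4 bp. CG31998, CG31999 and anne ranked 3783, 4199 and 3492, each beyond rank 4417 in at least 1 replicate. Of the 4 genes left out, RpS3A (rank 444), pho (rank 558) and ATPsynbeta were bound and eIF4G1 was not.

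In each replicate's own 4417 strongest peaks, 19, 26 and 26 of the 76 genes were bound in replicates 1, 2 and 3 (25.0%, 34.2% and 34.2%). The background over all protein-coding genes was 24.7%, 25.1% and 23.9%. Replicate 1 lay at the background, and replicates 2 and 3 lay above it. The mean was 31.1% ± 5.32 on chromosome 4 and 24.5% ± 0.597 on the large arms (SD, n = 3), a difference of 6.61 ± 5.47 percentage points. The two-sided exact sign-flip permutation p over the 3 replicates was 0.25, the smallest that 3 replicates can give, so the design cannot reach 0.05. In the optimal list the arms ranged from 22.1% on X through 23.9% on 2L, 25.2% on 2R and 26.1% on 3L to 26.3% on 3R. For 15 genes (19.7%) the peak was found in the strongest peaks of all replicates, against a background of 16.9%.

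**Figure D2:**
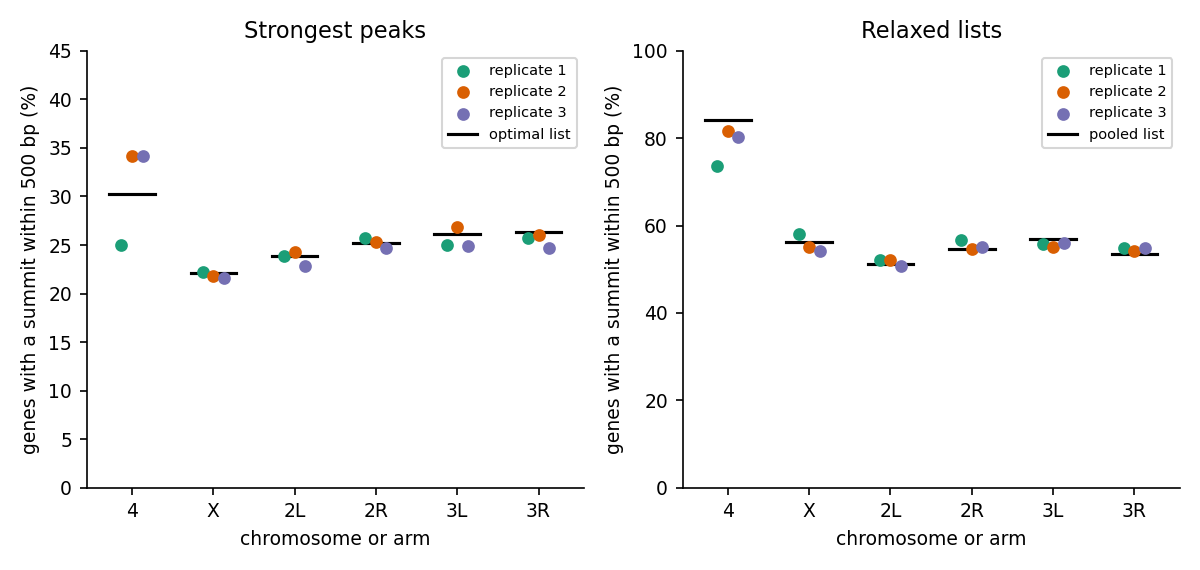
Share of protein-coding genes with a summit within 500 bp of a TSS (per cent), on chromosome 4 (76 genes) and on each large arm, for the optimal list and the 4417 strongest peaks of each replicate (left) and for the pooled and replicate relaxed lists (right). On chromosome 4 replicate 1 lies at 25.0% and the others at 34.2%; in the relaxed lists every replicate is above 70% there and below 60% on the arms.

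The genes of chromosome 4 differ in build from those elsewhere, and the bound shares were compared within classes of genes; differences between classes were not tested. Their median length was 10444.5 bp, against 2156 bp on the large arms, and 60 of 76 (78.9%) were 5000 bp or longer, against 24.7%. Among genes of that length 31.7% were bound on chromosome 4 and 36.0% on the large arms, and the replicates gave a mean difference of -2.84 points (exact sign-flip p = 0.75). Among shorter genes the shares were 25.0% and 21.3%. The mean number of TSSs was 1.80 against 1.40. Among genes with 1 TSS the shares were 25.6% and 19.8%, and with 2 or more 35.1% and 39.2%. When only the 5′-most TSS of each gene was used, the replicate mean of the difference was 0.0423 points (exact sign-flip p = 1.0). In the optimal list 15 genes (19.7%) were then bound, against 23.2% on the large arms, so the direction turned.

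Divergent (head-to-head) arrangement, in which a TSS lies within 500 bp of that of a gene transcribed away from it, was less common on chromosome 4 (13 of 76 genes, 17.1%, against 27.4%). Of the divergent genes, 4 of 13 (30.8%) were bound on chromosome 4 and 47.0% on the large arms. Of the other genes, 19 of 63 (30.2%) were bound, against 16.6%. The replicates gave a mean difference of -5.32 points for divergent genes (exact sign-flip p = 0.5) and of 12.8 points for the others (exact p = 0.25, the smallest possible). The divergent members are few, and whether the 2 differences differ was not tested. Of the 4 bound, Zyx and apolpp share a peak. CG31999 was bound at an internal TSS, with the summit 1866 bp from the TSS of its unbound divergent partner yellow-h.

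**Figure D3:**
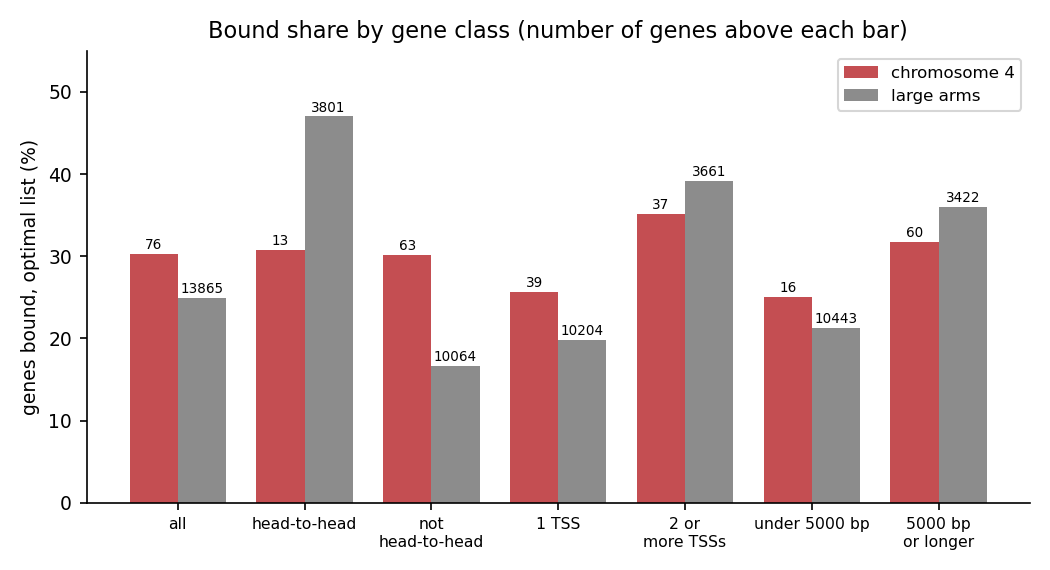
Share of genes bound in the optimal list (per cent, bars from 0) on chromosome 4 and on the large arms, for all genes and by promoter arrangement, number of TSSs and gene length, with the number of genes above each bar. The chromosome 4 bar is higher for genes that are not divergent (30.2% against 16.6%) and lower for divergent genes (30.8% against 47.0%) and for genes of 5000 bp or longer (31.7% against 36.0%).

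Entries of the relaxed lists were widespread on the chromosome. These lists hold background as well as peaks, and neither enrichment over a control nor the mappability of repeats was examined here, so an entry is not by itself a site. The pooled relaxed list had a summit within 500 bp of a TSS for 64 of the 76 genes (84.2%), against a background of 54.6% and 54.4% on the large arms. In the replicates' relaxed lists the shares were 73.7%, 81.6% and 80.3% (78.5% ± 4.23, SD, n = 3), all above the 55.4%, 54.2% and 54.3% of the large arms (54.6% ± 0.690). The difference was 23.9 ± 4.92 points (exact sign-flip p = 0.25, the smallest possible). Among genes of 5000 bp or longer it was 8.91 points. In the pooled list the shares for divergent genes were close, 84.6% on chromosome 4 and 80.4% on the large arms. For the other genes they were 84.1% and 44.6%. Differences between these classes were not tested.

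The relaxed lists were denser on chromosome 4 as an average over its length, and not at its promoters alone. They held 357, 420 and 395 summits per Mb on chromosome 4 in replicates 1, 2 and 3 (390 ± 31.7), against 222 ± 0.319 on the large arms (SD, n = 3). Pooled-list summits more than 2000 bp from any TSS came to 250 per Mb of the full length of chromosome 4. On the large arms they came to 90.7 per Mb of full length. Chromosome 4 also had fewer TSSs per Mb (136 against 177), and the length of sequence that far from a TSS was not measured. Only 19.0% of its chromosome 4 summits were at promoters, against 32.6%. Among the 4417 strongest peaks the density was 32.4 ± 4.35 per Mb on chromosome 4 and 33.0 ± 0.0459 on the large arms, with replicate 1 lowest at 27.4. Sequence within 500 bp of the 5′-most TSS also differed, with a mean of 25.1% soft-masked bases at bound and 23.5% at unbound chromosome 4 genes, against 15.2% and 13.8% on the large arms. The median GC content was 32.7% and 31.5%, against 42.3% and 42.5%. The part of the density and of the sequence in the higher relaxed share was not tested.

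**Figure D4:**
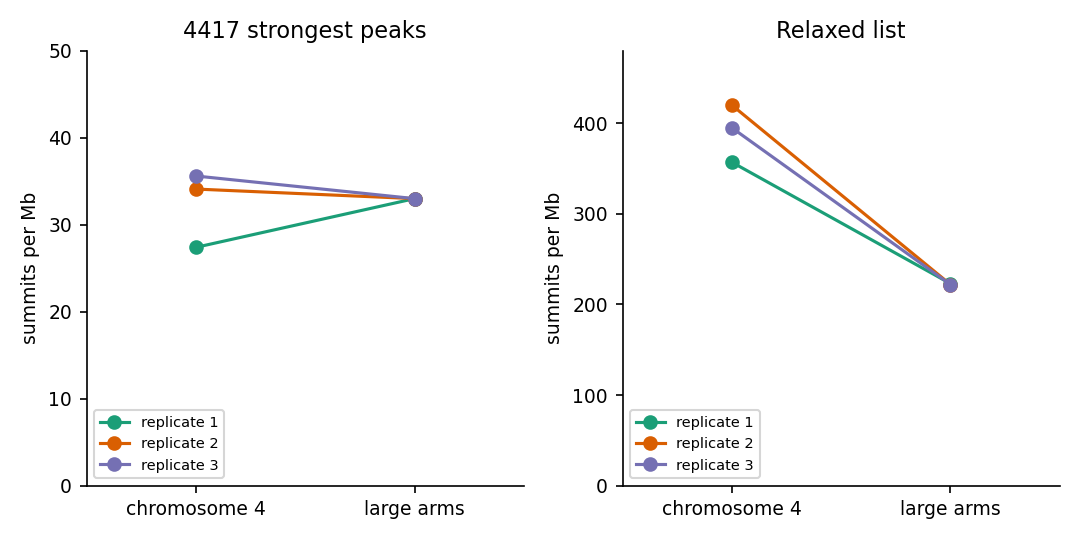
Summits per Mb on chromosome 4 and on the large arms for each replicate, among its 4417 strongest peaks (left) and in its relaxed list (right); lines join the values of 1 replicate. The strongest peaks are about equally dense on both, while the relaxed lists hold 357 to 420 summits per Mb on chromosome 4 and about 222 elsewhere.

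Of the 53 unbound genes, 41 (77.4%) had a pooled relaxed summit at a TSS, against 39.3% of unbound genes of the large arms, and 28 had a relaxed summit in all 3 replicates. The best ranked were the kinase gene Asator (rank 4712), the TFIID gene Taf3 (4897), the transcriptional cofactor gene Hcf (4973) and the divergent pair of the vesicle gene Cadps and the kinase gene Dyrk3 (5066). They were followed by the divergent pair of the DNA glycosylase gene Tdg and Pur-alpha (5400), Rnf11 (5407), zfh2 (6024) and the vesicle priming gene unc-13 (6151), all past the optimal list's last rank of 4417. In total 13 unbound genes were bound in the strongest peaks of at least 1 replicate. For this count and for the 28 genes above, the share over unbound genes of the large arms was not computed. Neither count can therefore be set against a background. Summits were absent from every relaxed list at 7 genes, namely Kif3C, yellow-h, fd102C, CG33941, dpr7, Gat and Ephrin.

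The strongest peaks of chromosome 4 lay outside the promoter limit of 500 bp, some of them not far outside it. Of its 42 optimal peaks, 25 (59.5%) were within 500 bp of a TSS of any gene, against 64.7% on the large arms, and 17 were distal. The 5 strongest were all distal, at ranks 78, 103, 137, 204 and 227. Ahead of every chromosome 4 promoter stood the intergenic peak with its summit at 424803, 1264 bp from the non-coding RNA gene lncRNA:CR43437 and 19108 bp from lgs, at rank 78 (180, 64 and 61 in the replicates). Next came peaks 657 bp upstream of Sox102F (rank 103; 95, 129 and 104) and 3924 bp upstream of zfh2, a zinc finger homeodomain gene (rank 137; 107, 232 and 131). A peak 1539 bp upstream of fuss ranked 204 (287, 219 and 172), and one in an intron of Asator, 707 bp from a TSS, ranked 227 (253, 262 and 271). All 5 were in the top 300 of every replicate list.

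The windows around the 3 strongest summits are given on the plus strand, with the summit base in capitals. Of the words searched they hold only ACACAC, at the site of rank 78, where it reads gtgtgt on this strand.

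Rank 78, chr4:424753-424853: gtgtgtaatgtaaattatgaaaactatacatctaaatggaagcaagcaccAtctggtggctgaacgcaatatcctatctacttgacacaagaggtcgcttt

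Rank 103, chr4:835000-835100: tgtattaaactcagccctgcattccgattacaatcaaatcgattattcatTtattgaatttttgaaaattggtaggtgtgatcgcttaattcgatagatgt

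Rank 137, chr4:497836-497936: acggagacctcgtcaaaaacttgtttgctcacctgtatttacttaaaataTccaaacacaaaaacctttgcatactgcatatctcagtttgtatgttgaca

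Further distal peaks stood in the 3′ UTR of Cals, a calsyntenin gene (rank 657; 758, 589 and 917), 553 bp upstream of pan (rank 682; 853, 350 and 1208), 1564 bp upstream of Sox102F (rank 1109) and 803 bp upstream of myo (rank 1328). On chromosome 4 the median rank was 1328 for distal and 2238 for promoter peaks. On the large arms the order was the other way, with 2380 for distal and 2140 for promoter peaks. In the top 441 ranks, the first 10% of the optimal list, 1 of 6 chromosome 4 peaks (16.7%) was at a promoter, against 66.9% of those on the large arms. The next peak, that of RpS3A at rank 444, lay just past this limit. In the top 500 ranks 2 of 7 (28.6%) were at promoters, against 68.4%, and in the top 1000 ranks 3 of 10, against 67.8%. In their top 441 ranks the replicates gave 0 of 5, 2 of 8 and 2 of 7, against 66.3%, 70.4% and 65.9%. The direction was the same in all 3, but each count rests on 8 peaks or fewer and was not tested. Only the limit of 500 bp was used for these promoter shares. The peaks of rank 103 and 227 lie 657 and 707 bp from a TSS and would be at promoters with a limit of 1000 bp. So would those upstream of pan and myo and the peak of rank 3244, 558 bp from Asator. The shares at that limit were not computed.

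**Figure D5:**
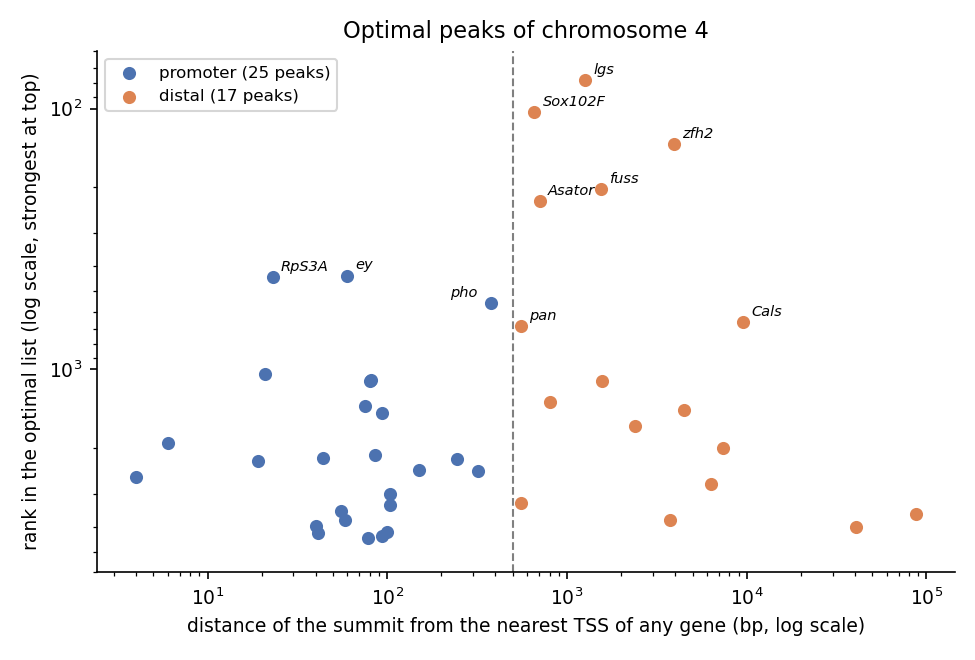
Rank in the optimal list (log scale, strongest at the top) against the distance of the summit from the nearest TSS of any gene (bp, log scale) for the 42 optimal peaks of chromosome 4; the dashed line is 500 bp, and peaks up to rank 700 carry the name of the nearest of the 76 genes, or of RpS3A or pho. The 5 strongest peaks lie to the right of the line, ahead of ey at rank 437.

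Pathways that contain genes of chromosome 4 were described from lists that hold both those genes and genes elsewhere. A further list, of proteins of chromosome 4 chromatin and heterochromatin, holds only genes elsewhere. Without the chromosome 4 genes, 5 of 11 Hedgehog, 7 of 13 Wnt, 3 of 6 activin and 1 of 6 retinal determination genes were bound. In the Hedgehog pathway 6 of 12 genes were bound, against 25.0% of all genes. They were ci, the receptor gene ptc (158 bp from a summit, rank 3213), smo (rank 2075), cos (rank 1027), boi (rank 4191) and Pka-C1 (rank 4182), while the ligand gene hh was unbound. In the Wnt pathway 8 of 15 were bound (53.3%), among them lgs, its partner pygo (rank 2941), the coreceptor gene arr (rank 560), the kinase gene sgg (rank 432) and Axn (rank 990). The ligand gene wg, arm and pan were not. In the activin pathway 4 of 9 were bound (44.4%), namely Actbeta, the receptor genes put (rank 1499) and wit (rank 3401) and the co-Smad gene Med (rank 2268).

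The retinal determination genes were bound in 2 of 8 cases (25.0%, background 25.0%), ey and eyg (rank 3094), with toy, eya, so and dac unbound. Of 12 genes for proteins of chromosome 4 and heterochromatin 6 were bound. The gene of HP1a itself had its summit 186 bp from a TSS (rank 3988), and Su(var)3-9 48 bp (rank 4312), Su(var)3-7 182 bp (rank 2333) and G9a 66 bp (rank 1008), and HP4 and HP5 were bound as well. The gene Pof was unbound, 57781 bp from the nearest optimal summit, and egg was 13755 bp from one. The cofactor gene wde lay 521 bp from a summit of rank 112, just outside the limit. These lists are short, and no test was attached to their counts.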

How the data were processed

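ChIP-seq peak lists of 3 biological replicates were used. Per the deposited file lists, the authors derived a relaxed list from each replicate and from the pooled alignments, each with a control file that was not analysed here, and from these lists the optimal one, by the irreproducible discovery rate. Which aligner, peak caller and threshold served is not given in the sources used here. As signal, each peak has a score deposited by the authors, used only for ranks within a list. The −log10 q deposited by the authors entered no test. Lists on the older build dm3 were not used.

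Summits were set against the TSSs of 13945 protein-coding genes of Ensembl release 115 (BDGP6.54), and sequences were read from the RefSeq genome of the same assembly. Replicates were reduced to their 4417 strongest peaks, and summits were matched within 150 bp. Differences between chromosome 4 and the large arms were tested with a two-sided exact sign-flip permutation over the 3 replicates (Python 3.11.15, NumPy 2.4.6, pandas 2.3.3), checked on simulated data. No count model applies to peak lists, and depth is unknown.

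Members, role groups, pathway lists and words were chosen with earlier results of these data known, and 10 genes were placed in their role group, and GTTGCCA added, after values had been seen. All bound members are named, with the members nearest the limit, the 10 unbound members with the best relaxed peak and those without any, and 1 unbound member is not reported by name here; the named distal peaks were chosen after their ranks were seen. Of the pathway genes, Wls was not matched. Alternatives changed the promoter distance, the TSSs, the peaks and genes used and the matching distance, and left out each replicate.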

Additional observations from a re-analysis of the deposited data

How the results depend on the processing

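The count of 23 bound genes (30.3%, large arms 24.9%) was 22 with promoters of 250 bp, 27 with 1000 bp and 21 with a peak counted for its nearest TSS only. It was 15 with the 5′-most TSS only (19.7%, large arms 23.2%), 15 in peaks found in all replicates (19.7%, 16.8%) and 10 in the 50% of peaks with higher signal (13.2%, 13.7%). Without a replicate, where a peak had to be found in both others, it ranged from 15 to 18, lowest without replicate 3 (19.7%, 19.0%), and the large arms fell too, to between 18.7% and 19.0%. The difference in bound share of 6.61 points turned to -0.640 with the 2000 strongest peaks, to -5.32 among head-to-head genes and to -2.84 among genes of 5000 bp or longer, the last chosen after seeing the data, as was that to genes with 1 TSS (7.01); the cause was not tested. Without a replicate it ranged from 4.75 to 9.75 points, and its other alternatives lay between 0.0423 and 12.8. The difference in the relaxed lists kept its direction in all 8 alternatives (8.91 to 29.4 points). With matching within 50 bp, 14 of 23 bound genes had a summit in every replicate. The test pairs the shares within each replicate. With 1 group there is no further comparison to block by replicate. No counting interval can be given without read counts, and 76 genes and 42 peaks limit every share.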

Other observations

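In the 250 bp upstream of the bound TSS, TATAAA occurred on either strand at 6 of 23 bound chromosome 4 genes (26.1%), against 40.6% of bound genes of the large arms. The 6 were CG32017, MED26, Rad23, Sox102F, Zyx and apolpp. TATCGATA occurred at 3 of 23, against 13.7%. Upstream of the 5′-most TSS, which had a summit within 500 bp for 15 of the 23 genes, TATAAA occurred at 3 of 23 bound and 23 of 53 unbound chromosome 4 genes, so its count depends on the TSS used. These words were not tested, and the counts on chromosome 4 are small.

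Optimal peaks were also found in the gene-poor stretch beyond Cadps, 40527 bp (rank 4006) and 87165 bp (rank 3597) from its TSS. Their ranks were 12835, 3137 and 4216 in replicates 1, 2 and 3 for the former and 6135, 5299 and 2690 for the latter, so that neither was among the strongest peaks of every replicate.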
